A study of Mus musculus with 9 samples.

Results

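The genes examined were 8 enzymes that supply or use reducing power in mitochondria: Nnt, Idh2, Sod2, Prdx3, Prdx5, Txn2, Txnrd2, and Gpx4, that is 8 of the 54119 genes to which the deposited transcripts could be summed. All 8 genes passed the filter on low counts, as did 16273 genes in all. Nnt was selected on its measured values, because it was lower after Tsc2 siRNA treatment, whereas the other 7 genes were taken for their place in the same pathway. The level of Nnt in the Tsc2 siRNA-treated group is therefore given as a description, and nothing is read from the calls of Nnt counted in the closing section.

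The data were 9 RNA-seq libraries of primary microglia, the resident immune cells of the brain, cultured from brains of C57BL/6J mice before birth and shaken off mixed glial cultures. Each of 3 groups of 3 libraries received control siRNA, Chd8 siRNA, or Tsc2 siRNA, short double-stranded RNAs that lower the mRNA they match. All 9 libraries were therefore transfected, and no untransfected culture was compared. CHD8 is a chromatin remodeler, TSC2 restrains mTORC1 signaling, and variants of both genes are associated with autism spectrum disorder. The methods describe each biological replicate as a culture from a separate brain, but do not say whether libraries with the same replicate number came from one culture. The text of the study gives lipopolysaccharide stimulation before RNA-seq, and its methods give it for siRNA-treated microglia in general, whereas the sample descriptions do not name it.

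Reactive oxygen is formed in mitochondria as a by-product of respiration. Superoxide dismutase 2 (SOD2) converts superoxide in the matrix to hydrogen peroxide, the peroxiredoxins PRDX3 and PRDX5 reduce that peroxide, and glutathione peroxidase 4 (GPX4) reduces lipid peroxides. PRDX3 and PRDX5 are recharged by thioredoxin 2 (TXN2), which is itself reduced by thioredoxin reductase 2 (TXNRD2), and TXNRD2 takes its electrons from NADPH. Mitochondrial NADPH comes in part from isocitrate dehydrogenase 2 (IDH2) and in part from NNT, the nicotinamide nucleotide transhydrogenase of the inner membrane, which uses the proton gradient to pass hydride from NADH to NADP+. C57BL/6J mice are known to carry a shortened Nnt gene from which several exons are missing, and the mouse reference genome was made from this strain.

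Nnt is annotated on the minus strand of chromosome 13 in GRCm38 as 2 gene entries that lie on top of each other. The main entry, ENSMUSG00000025453, spans chr13:119335448-119408997 and holds 5 transcripts, Nnt-201 to Nnt-205. The second entry, ENSMUSG00000116207, spans chr13:119335528-119408952 and holds only Nnt-206. Nnt-202 (3464 bases) and Nnt-206 (3339 bases) both have 17 exons and the same coding length of 2505 bases, and the whole of Nnt-206 is contained in Nnt-202, which only runs 45 bases further at its start and 80 bases further at its end. Nnt-201 (3122 bases, coding length 2163 bases) lacks exon 8 (chr13:119374629-119374774, 146 bases) and exon 9 (chr13:119372396-119372591, 196 bases) of Nnt-202. Nnt-204 and Nnt-205 are annotated as retained-intron transcripts with no coding part.

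**Figure D1:**
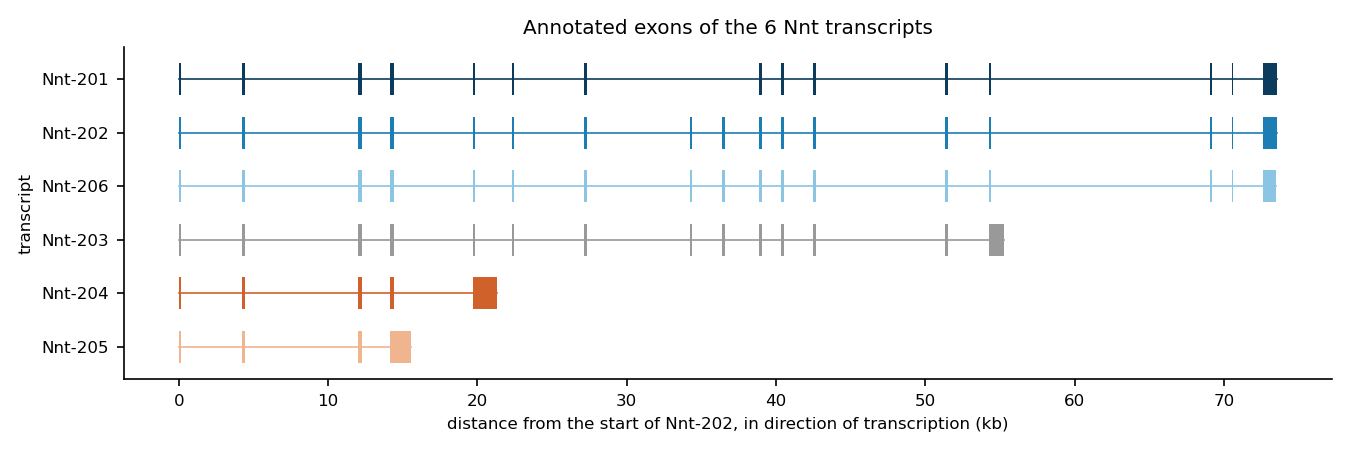
Exons of the 6 annotated Nnt transcripts, drawn to scale against the distance in kb from the start of Nnt-202 in the direction of transcription, with 1 transcript per row. Nnt-202 and Nnt-206 have the same 17 exons apart from their outer ends, Nnt-201 lacks exons 8 and 9, and Nnt-204 and Nnt-205 end early in a long last exon.

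The junctions that tell Nnt-201 from Nnt-202 and Nnt-206 are shown because they are the coding sequence in which these transcripts differ. Nnt-203, which ends earlier, also holds both extra exons. Each line is 5′ to 3′ on the minus strand from GENCODE M21 transcript sequences (GRCm38), with 30 bases of the upstream exon in lower case and 30 bases of the downstream exon in capitals. The upstream exon is chr13:119381676-119381863 in the first and second lines, and exon 9 in the last line. The downstream exon is chr13:119369912-119370145 in the first and last lines, and exon 8 in the second line.
Nnt-201 junction: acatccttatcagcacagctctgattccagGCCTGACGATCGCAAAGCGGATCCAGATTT
Nnt-202, Nnt-203, and Nnt-206, entry into the extra exons: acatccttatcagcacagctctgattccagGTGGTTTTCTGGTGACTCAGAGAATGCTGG
Nnt-202, Nnt-203, and Nnt-206, exit from the extra exons: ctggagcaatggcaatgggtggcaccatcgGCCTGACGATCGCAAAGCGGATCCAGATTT
Nnt-202, Nnt-203, and Nnt-206 share the last 2 of these lines, and no 31-base stretch of Nnt-202 or Nnt-206 was absent from the other Nnt transcripts. By contrast, Nnt-201 had 28 such private stretches of 3092, Nnt-203 had 925 of 3168, Nnt-204 had 1493 of 2297, and Nnt-205 had 1139 of 1855. A read from the part of Nnt-202 that Nnt-206 holds therefore matches both equally well.

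Total estimated counts were between 16913448 and 33213801 per library, so 3 counts, taken as the smallest number detected, came to between 0.0903 and 0.177 CPM, where CPM stands for counts divided by library size. This floor covers counting error only. Chd8 was between 93.6 and 118 CPM with control siRNA and at 86.8, 44.5, and 38.3 CPM in Chd8 siRNA libraries 1 to 3. Library 1 thus lay nearest to the control siRNA group. Tsc2 was between 38.9 and 40.8 CPM with control siRNA and at 24.6, 30.6, and 36.5 CPM in Tsc2 siRNA libraries 1 to 3. The summed level of 9 microglial markers was between 1617 and 2266 CPM, and 8 of them were above the floor in all 9 libraries. The exception was Tmem119, which lay between 0 and 1.13 CPM, and P2ry12 did not exceed 2.80 CPM. The summed level of 7 astrocyte markers was between 14.1 and 107 CPM in the control siRNA group, between 12.6 and 46.4 CPM in the Chd8 siRNA group, and between 11.3 and 51.5 CPM in the Tsc2 siRNA group. The summed level of 4 neuron markers was between 3.65 and 15.8 CPM with control siRNA, between 2.36 and 9.08 CPM with Chd8 siRNA, and between 1.96 and 3.38 CPM with Tsc2 siRNA, so the Tsc2 siRNA group lay below the control siRNA group, as it did in the main entry of Nnt. Of these markers, Map2 was between 1.43 and 14.3 CPM, while Tubb3, Rbfox3, and Snap25 did not exceed 0.768, 0.177, and 0.922 CPM. The 4 fibroblast and mural markers summed to between 10.2 and 66.7 CPM with control siRNA, 9.95 and 27.1 CPM with Chd8 siRNA, and 7.70 and 46.6 CPM with Tsc2 siRNA, and the sums of the oligodendrocyte and endothelial markers also overlapped among the groups. Whether these other cells had a part in the values below was not tested. In bulk libraries, fewer cells of a type and less RNA per cell cannot be told apart.

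Per transcript length, Sod2 and Prdx5 were by far the highest of the 8 genes and Nnt had the lowest median. In TPM, a level scaled to transcript length and library size, over all 9 libraries, the median was 253 for Sod2 (209 to 283) and 240 for Prdx5 (176 to 276), and these ranges overlapped. Gpx4 followed with a median of 30.6 TPM (22.8 to 36.8), Txn2 with 8.07 TPM (6.75 to 9.39), and Idh2 with 3.03 TPM (2.50 to 5.80), none of which overlapped with its neighbors in this order. Txnrd2 had a median of 2.07 TPM (0.817 to 2.44), Prdx3 of 1.77 TPM (1.25 to 2.96), and Nnt, with both entries summed, of 1.16 TPM (0.784 to 1.44). The ranges of Txnrd2, Prdx3, and Nnt overlapped from each to the next, and Prdx3 also reached into the range of Idh2.

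In the main entry of Nnt, the 3 Tsc2 siRNA libraries lay below all other libraries. Normalized levels were 6.60, 3.14, and 5.45 CPM with control siRNA (libraries 1 to 3), 6.70, 5.93, and 7.03 CPM with Chd8 siRNA, and 1.41, 0.953, and 1.76 CPM with Tsc2 siRNA. The mean was 5.06 ± 1.76 CPM (SD, n = 3) in the control siRNA group and 1.37 ± 0.403 CPM (SD, n = 3) in the Tsc2 siRNA group, and the fitted log2 fold change was -1.87 (SE 0.34). Against the Chd8 siRNA group, with a mean of 6.56 ± 0.565 CPM (SD, n = 3), the fitted log2 difference of the Tsc2 siRNA group was -2.24 (SE 0.34). Both comparisons include the Tsc2 siRNA libraries on which Nnt was selected. The counts behind these levels were small, with 19 estimated counts in the lowest library.

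The second entry of Nnt gave the opposite picture. Its levels were 1.58, 4.49, and 0 CPM with control siRNA, 0 CPM in all 3 libraries with Chd8 siRNA, and 6.27, 4.31, and 2.75 CPM with Tsc2 siRNA. All 3 Tsc2 siRNA libraries were thus above all 3 Chd8 siRNA libraries, while the control siRNA libraries overlapped with both groups.

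With both entries summed, Nnt levels overlapped among all 3 groups. The sum was 8.18, 7.64, and 5.45 CPM with control siRNA, 6.70, 5.93, and 7.03 CPM with Chd8 siRNA, and 7.68, 5.26, and 4.48 CPM with Tsc2 siRNA. The means were 7.09 ± 1.45 CPM in the control siRNA group, 6.55 ± 0.565 CPM in the Chd8 siRNA group, and 5.81 ± 1.67 CPM in the Tsc2 siRNA group (SD, n = 3 each). The fitted log2 fold change of the sum was -0.29 (SE 0.26) for Tsc2 siRNA against control siRNA, compared with -1.87 for the main entry alone. At each replicate number the Tsc2 siRNA library was below the control siRNA library in the sum, by a log2 difference of -0.086, -0.50, and -0.26 for the numbers 1 to 3, on the log2(CPM + 0.5) scale.

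The Chd8 siRNA libraries had no part in the choice of Nnt, but the control siRNA libraries are shared with the Tsc2 siRNA comparison. In the main entry, 42.4% of the counts over the 9 libraries were those of Nnt-202, whose reads mostly match the second entry as well. For Chd8 siRNA against control siRNA, the main entry was not called. The log2 fold change against control siRNA was 0.37 (SE 0.32, adjusted p = 1.00 in edgeR's quasi-likelihood test). In the same fit it was 0.13 without control siRNA library 2 and 0.61 without control siRNA library 1. The two-sided exact permutation test gave p = 0.2, where 0.1 is the smallest p that 3 libraries against 3 allow. With both entries summed, the log2 fold change was -0.11 (SE 0.26, adjusted p = 1.00 in the same edgeR test), so the direction depended on whether the second entry was counted. The groups overlapped in both cases. No test is given for the second entry alone, because its reads match Nnt-202 as well and because it passed the filter on low counts only with the Tsc2 siRNA libraries included. With both entries summed and the replicate number as a block, the log2 fold change was -0.085 (SE 0.23, adjusted p = 0.925, edgeR).

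**Figure D2:**
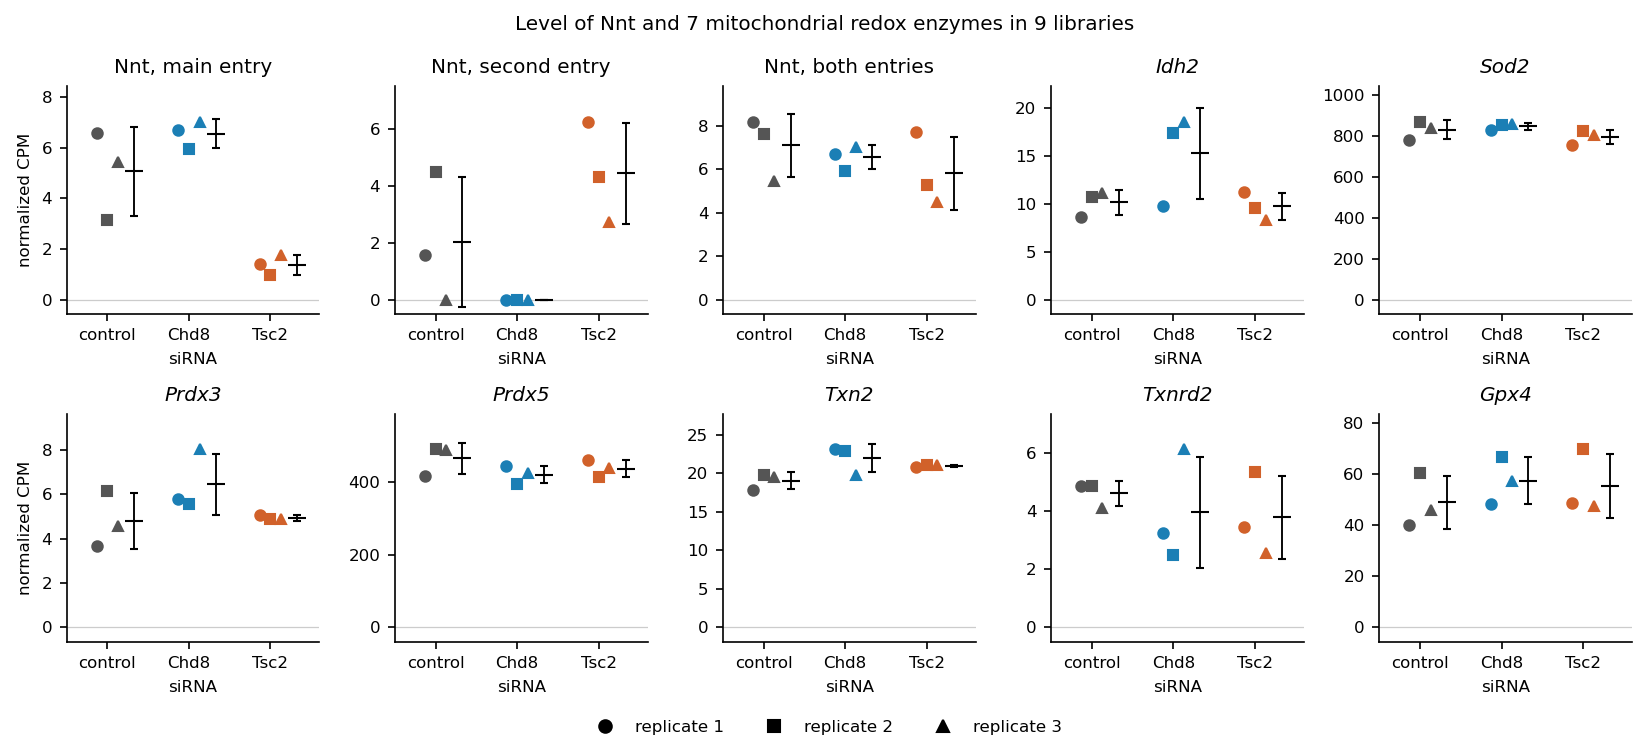
Normalized CPM of each gene in each library, with symbols for replicate numbers 1 to 3 and, beside them, the mean ± SD of 3 libraries, for the control, Chd8, and Tsc2 siRNA groups; the vertical axes start just below 0. The Tsc2 siRNA libraries are lowest in the main entry of Nnt, between 0.953 and 1.76 CPM, and highest on average in its second entry, whereas the sum of both entries overlaps among the groups.

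The single transcripts of both entries were then compared. Nnt-202 had 0, 0, and 78 estimated counts with control siRNA (libraries 1 to 3), 133, 55, and 128 with Chd8 siRNA, and 0 in all 3 libraries with Tsc2 siRNA. Nnt-206, the contained copy, had 42, 73, and 0 counts with control siRNA, 0 in all 3 libraries with Chd8 siRNA, and 147, 86, and 94 with Tsc2 siRNA. In 9 of 9 libraries exactly 1 of Nnt-202 and Nnt-206 had counts, and the other was at 0. Since reads of these transcripts match both, a 0 in either of them sets no upper limit on its level, and no fold change is given.

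Nnt-201, the transcript without exons 8 and 9, had 65 and 21 counts in libraries 1 and 2 of the control siRNA group and was at 0 in the other 7 libraries. Nnt-201, Nnt-202, and Nnt-206 together, the transcripts that run to the last annotated exon, were at nearly the same mean level in the 3 groups. This sum was 3.94, 5.83, and 3.39 CPM with control siRNA, 4.41, 3.55, and 5.34 CPM with Chd8 siRNA, and 6.19, 4.35, and 2.75 CPM with Tsc2 siRNA. The means were 4.39 ± 1.28, 4.44 ± 0.897, and 4.43 ± 1.72 CPM (SD, n = 3), in the same order of groups.

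The retained-intron transcripts, which have sequence of their own, were lower in the Tsc2 siRNA libraries, given here as a description. Nnt-204 had 57, 23, and 48 counts with control siRNA, 55, 38, and 36 with Chd8 siRNA, and 25, 10, and 40 with Tsc2 siRNA. Nnt-205 did not exceed 9 counts in any library. Together they were at 2.35, 1.86, and 2.08 CPM with control siRNA, 2.13, 2.45, and 1.84 CPM with Chd8 siRNA, and 1.18, 0.556, and 1.17 CPM with Tsc2 siRNA. The 3 Tsc2 siRNA libraries were thus below the other 6, with means of 2.10 ± 0.246, 2.14 ± 0.308, and 0.969 ± 0.358 CPM (SD, n = 3). This order rested on Nnt-204, whereas Nnt-205 alone overlapped among the groups. Of all genes, 8.11% had groups that did not overlap for Tsc2 siRNA against control siRNA, and 8.44% for Tsc2 siRNA against Chd8 siRNA. Both transcripts belong to the main entry of Nnt, which was selected on these libraries. Nnt-203 was between 0 and 46 counts, with its highest count in control siRNA library 1.

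Only Nnt-202, Nnt-204, and Nnt-206 passed the filter on low counts in the test of 41633 transcripts. For Chd8 siRNA against control siRNA, Nnt-204 had a log2 fold change of 0.04 (SE 0.50, adjusted p = 1.00 in edgeR's quasi-likelihood test). No test is given for Nnt-202 or Nnt-206, between which reads could not be told apart. No transcript of any gene was called in that comparison (0%), and 1384 of the 41633 (3.32%) had an unadjusted p under 0.05 in that test.

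**Figure D3:**
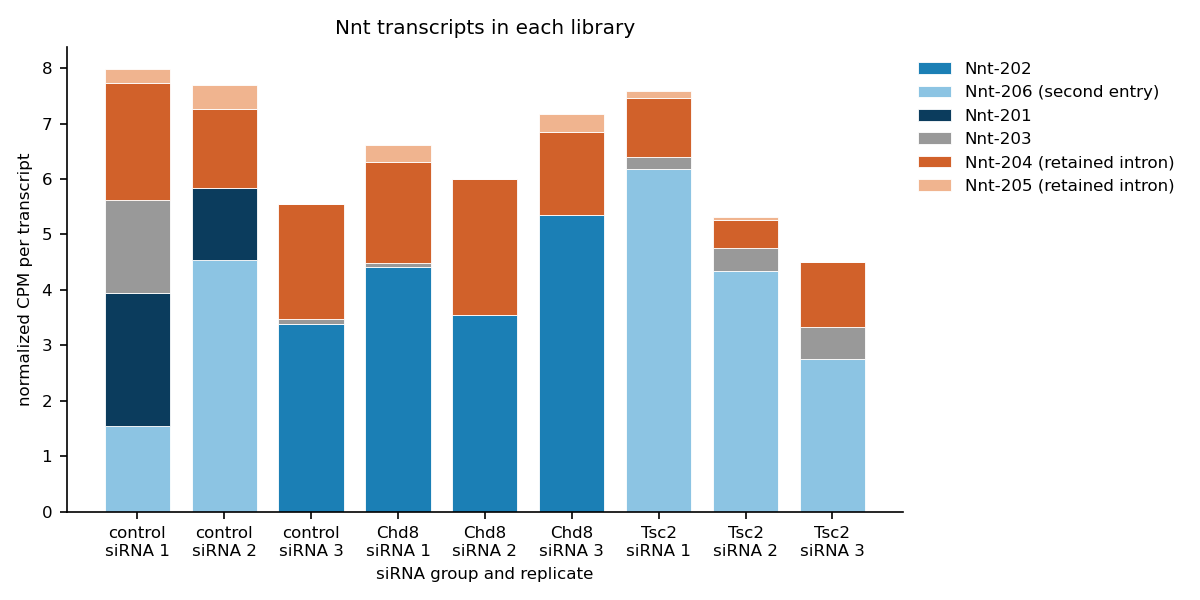
Stacked bars of the normalized CPM of the 6 Nnt transcripts in each of the 9 libraries, by siRNA group and replicate. Each bar holds either Nnt-202 or Nnt-206 but never both, and the retained-intron transcripts together are at their lowest levels, 0.556 to 1.18 CPM, in the Tsc2 siRNA libraries.

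The genes described beside Nnt were near their control level. Paip1, which lies 19604 bases away on the side of higher coordinates, had a log2 fold change of 0.01 (SE 0.14) with Tsc2 siRNA and 0.0044 (SE 0.14) with Chd8 siRNA. The next gene on that side, 4833420G17Rik, had 0.22 (SE 0.25) and 0.10 (SE 0.25). On the other side, Mrps30 had -0.029 (SE 0.17) and -0.055 (SE 0.17). None of these 3 genes was called (adjusted p = 1.00 for each in edgeR's quasi-likelihood test).

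Across the 9 libraries, the genes whose log2 CPM followed the main entry of Nnt most closely were Chd7 (Pearson r = 0.98), Dennd4c (r = 0.96), Hist1h3h (r = 0.91), Atxn3 (r = 0.91), and Vmn1r20 (r = 0.89). These were the 5 highest among 16273 genes and are given as a description over libraries that share the siRNA groups. The libraries include those of Tsc2 siRNA, on which Nnt was selected. Levels of Hist1h3h (0.176 to 0.829 CPM) and Vmn1r20 (0.555 to 1.48 CPM) were low, with the lowest Hist1h3h value near the floor. Chd7, a chromatin remodeler related to CHD8, was between 114 and 139 CPM with control siRNA, between 137 and 139 CPM with Chd8 siRNA, and between 90.4 and 104 CPM with Tsc2 siRNA. For both entries summed, an order computed after the values were seen, the 5 highest were Gm44550 (r = 0.94), Dctn6 (r = 0.93), Olfml2b (r = 0.93), Mfsd4b5 (r = 0.92), and Flna (r = 0.91). Of these, Olfml2b was between 0.0293 and 1.11 CPM, so it reached below the floor. The lists had no gene in common.

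With the siRNA group as the only factor, none of the 8 genes was called for Chd8 siRNA against control siRNA, and none of the 7 genes other than Nnt in either comparison of Tsc2 siRNA. A gene was called at an adjusted p (FDR) of 0.05 and a fold change of 1.5 in edgeR's quasi-likelihood test over all 16273 genes, and by that rule 0% of all genes were called in each comparison. An unadjusted p under 0.05 in that test was reached by 1 of the 8 genes for Chd8 siRNA against control siRNA (Idh2), beside 3.82% of all genes, and, of the 7 genes other than Nnt, by 0 for Tsc2 siRNA against control siRNA, beside 2.61%, and by 1 for Tsc2 siRNA against Chd8 siRNA (Idh2), beside 3.10%. With the replicate number as a block, called genes were 0.535%, 0.387%, and 0.221% of all genes in the 3 comparisons, in that order. In that fit 0 of the 8 genes were called for Chd8 siRNA against control siRNA, and 0 of the 7 genes other than Nnt in either comparison of Tsc2 siRNA. DESeq2's Wald test gave the same counts, beside 0.0509%, 0.0136%, and 0.0068% of all genes it tested. As a description, the log2 difference of the Tsc2 siRNA group with the block was -1.86 against control siRNA and -2.27 against Chd8 siRNA in the main entry of Nnt, and -0.30 and -0.21 with both entries summed.

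Between Chd8 siRNA and control siRNA, 1 of the 8 genes had groups that did not overlap (Txn2), beside 9.09% of all genes. Of the 7 genes other than Nnt, this held for 1 with Tsc2 siRNA against control siRNA (Txn2), beside 8.11% of all genes, and for 2 with Tsc2 siRNA against Chd8 siRNA (Sod2 and Prdx3, both lower), beside 8.44%. The median log2 fold change of the 7 genes other than Nnt was 0.21 with Chd8 siRNA and -0.061 with Tsc2 siRNA, beside medians of -0.018 and -0.018 over all genes tested. The comparisons of Chd8 siRNA and of Tsc2 siRNA with control siRNA share the 3 control siRNA libraries.

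**Figure D4:**
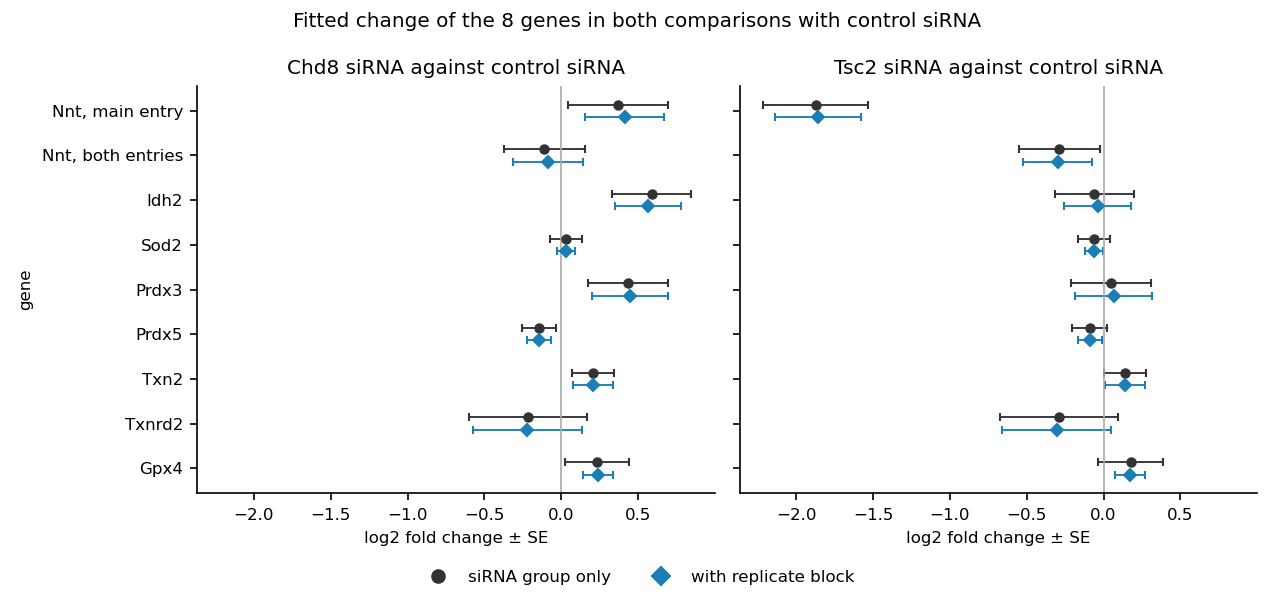
Fitted log2 fold change ± SE of the 8 genes, and of Nnt with both entries summed, in the comparisons of Chd8 siRNA (left) and Tsc2 siRNA (right) with control siRNA, without (circles) and with (diamonds) the replicate block. The main entry of Nnt stands at -1.87 with Tsc2 siRNA and at 0.37 with Chd8 siRNA, and the other genes lie between -0.31 and 0.59.

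Idh2, the other source of mitochondrial NADPH among the 8 genes, was highest in Chd8 siRNA libraries 2 and 3. Its levels were 8.64, 10.7, and 11.1 CPM with control siRNA, 9.78, 17.4, and 18.6 CPM with Chd8 siRNA, and 11.2, 9.58, and 8.34 CPM with Tsc2 siRNA. Chd8 siRNA library 1 lay inside the range of the control siRNA group, so these groups overlapped. Chd8 itself was at 86.8 CPM in that library and at 44.5 and 38.3 CPM in libraries 2 and 3. Whether this had a part in the Idh2 values was not tested. The log2 fold change of Idh2 with Chd8 siRNA was 0.59 (SE 0.26, unadjusted p = 0.0456, adjusted p = 1.00, edgeR), and the Chd8 siRNA library was above the control siRNA library at 3 of 3 replicate numbers. With Tsc2 siRNA the log2 fold change was -0.061 (SE 0.26, adjusted p = 1.00, edgeR). The log2 difference between Tsc2 siRNA and Chd8 siRNA was -0.65 (SE 0.26, unadjusted p = 0.0305, adjusted p = 1.00, edgeR), and it was called only when the block was used and Tsc2 siRNA library 1 was left out (-0.92, adjusted p = 0.0447). In that fit 130 of 17225 genes were called in this comparison, beside 36 of 16273 with the block and all 9 libraries. The other block fits that left out 1 library called between 4 and 81 genes. A single coding transcript held 99.6% of the Idh2 counts, and Gm45203 is annotated on the same strand across part of the gene.

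Sod2, the matrix superoxide dismutase and a known target of NF-κB, was nearly level. It was at 778, 870, and 839 CPM with control siRNA, 828, 855, and 859 CPM with Chd8 siRNA, and 754, 822, and 804 CPM with Tsc2 siRNA. The log2 fold change was 0.031 (SE 0.10) with Chd8 siRNA and -0.063 (SE 0.10) with Tsc2 siRNA (adjusted p = 1.00 for both, edgeR). The Tsc2 siRNA libraries were all below the Chd8 siRNA libraries, with a log2 difference of -0.095 (SE 0.10, adjusted p = 1.00, edgeR) and an exact permutation p of 0.1. Its main coding transcript held 53.4% of the Sod2 counts.

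Neither peroxiredoxin was called in any comparison. Prdx5 was at 418, 491, and 490 CPM with control siRNA, 444, 396, and 425 CPM with Chd8 siRNA, and 461, 415, and 439 CPM with Tsc2 siRNA. Its log2 fold change was -0.14 (SE 0.11) with Chd8 siRNA and -0.089 (SE 0.11) with Tsc2 siRNA, and control siRNA library 1 lay below the other 2 libraries of its group. Prdx5 overlaps Trmt112 on the opposite strand. Prdx3, which has a single annotated transcript, was at 3.66, 6.16, and 4.55 CPM with control siRNA, 5.76, 5.55, and 8.02 CPM with Chd8 siRNA, and 5.08, 4.86, and 4.86 CPM with Tsc2 siRNA. The spread of Prdx3 within the Tsc2 siRNA group (SD 0.126 CPM) was smaller than in the control siRNA group (SD 1.27 CPM) and the Chd8 siRNA group (SD 1.37 CPM), a difference that was not tested. Its log2 fold change was 0.43 (SE 0.26) with Chd8 siRNA, between 0.25 and 0.70 in fits that left out 1 library with or without the block, and 0.048 (SE 0.26) with Tsc2 siRNA, and the log2 difference between Tsc2 siRNA and Chd8 siRNA was -0.39 (SE 0.26). None of these values was called (adjusted p = 1.00 for each, edgeR).

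In the thioredoxin system, Txn2 was the only gene of the 8 that was higher in every library of both knockdown groups than in every control siRNA library. Of all genes, 9.09% had groups that did not overlap with Chd8 siRNA and 8.11% with Tsc2 siRNA, in either direction. The share for both comparisons at once was not counted, and both use the same control siRNA libraries, so nothing particular to Txn2 is read from this. Txn2 levels were 17.8, 19.8, and 19.6 CPM with control siRNA, 23.1, 23.0, and 19.8 CPM with Chd8 siRNA, and 20.8, 21.1, and 21.1 CPM with Tsc2 siRNA. The differences were small, with a log2 fold change of 0.21 (SE 0.14) for Chd8 siRNA and 0.14 (SE 0.14) for Tsc2 siRNA (adjusted p = 1.00 for both, edgeR), and the exact permutation test gave the smallest possible p, 0.1, in both. Chd8 siRNA library 3 and control siRNA library 2 were both at 19.8 CPM to this precision. Txnrd2, the selenoprotein that reduces TXN2, was at 4.86, 4.86, and 4.12 CPM with control siRNA, 3.25, 2.49, and 6.13 CPM with Chd8 siRNA, and 3.46, 5.36, and 2.55 CPM with Tsc2 siRNA. The knockdown libraries lay on both sides of the control siRNA group, and the log2 fold change was -0.22 (SE 0.38) with Chd8 siRNA and -0.29 (SE 0.39) with Tsc2 siRNA (adjusted p = 1.00 for both, edgeR). Its counts were divided among 15 of 16 annotated transcripts, of which the highest held 18.1%.

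Gpx4, the selenoprotein that reduces lipid peroxides, differed more between the means of the replicate numbers than between the means of the siRNA groups. It was at 40.2, 60.6, and 46.1 CPM with control siRNA, 48.4, 66.8, and 57.2 CPM with Chd8 siRNA, and 48.8, 69.7, and 47.3 CPM with Tsc2 siRNA. The means of the siRNA groups were 49.0, 57.5, and 55.3 CPM, in that order. The mean of the 3 libraries with replicate number 2 was 65.7 CPM, compared with 45.8 CPM for number 1 and 50.2 CPM for number 3. At all 3 replicate numbers both knockdown libraries were above the control siRNA library. The log2 fold change was 0.23 (SE 0.21) with Chd8 siRNA, between 0.11 and 0.42 in fits that left out 1 library with or without the block, and 0.18 (SE 0.21) with Tsc2 siRNA. With the replicate block it was 0.24 (SE 0.098, adjusted p = 0.299, edgeR) and 0.17 (SE 0.098, adjusted p = 0.582, edgeR). The annotation names 1 Gpx4 pseudogene, with which Gpx4 could share reads.

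The spread between libraries of a group differed among the genes. It includes differences between replicate numbers, which the blocked fit sets aside. For Chd8 siRNA against control siRNA, the SE of Gpx4 was 0.21 without the block and 0.098 with it, and that of Prdx3 was 0.26 and 0.25. The pooled SD of log2 CPM within groups was 0.062 for Sod2, 0.085 for Txn2, and 0.10 for Prdx5, whereas it was 0.25 for Prdx3, 0.28 for Gpx4, 0.32 for Idh2, and 0.44 for Txnrd2. For Nnt it was 0.35 in the main entry and 0.28 with both entries summed. Over the 9 libraries, the 28 pairs among the 8 genes had Pearson correlations of log2 CPM between -0.64 (Txn2 and Txnrd2) and 0.70 (Prdx3 and Idh2), with a median of 0.14. These values are a description over libraries that share groups and replicate numbers.

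Other genes of the pathway, 65 in 6 lists, were examined in the same fits, and each of these genes passed the filter on low counts. With the siRNA group as the only factor, 0 genes of any list were called in any comparison. The list of mitochondrial NADPH supply and one-carbon enzymes (8 genes) had a median log2 fold change of -0.23 with Chd8 siRNA and -0.43 with Tsc2 siRNA, beside -0.018 over all genes in both. Its largest values with Chd8 siRNA and with Tsc2 siRNA were those of Mthfd2l, a mitochondrial folate enzyme, at -1.22 (SE 0.52) and -0.79 (SE 0.51). Mthfd2l was at 1.70, 3.76, and 3.09 CPM with control siRNA, 1.07, 0.638, and 1.89 CPM with Chd8 siRNA, and 1.15, 2.46, and 1.32 CPM with Tsc2 siRNA, so both knockdown groups overlapped with the control siRNA group. With the block, the largest value for Tsc2 siRNA was that of Nadk2, the mitochondrial NAD kinase, at -0.80 (SE 0.31, adjusted p = 0.350, edgeR).

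Among the other mitochondrial thiol and glutathione enzymes (12 genes), the median was -0.073 with Chd8 siRNA and -0.026 with Tsc2 siRNA. The largest values were those of Gstk1, a mitochondrial and peroxisomal glutathione transferase that did not exceed 0.864 CPM, at 1.76 (SE 1.1) and 0.90 (SE 1.1). With the block, the largest value for Tsc2 siRNA was that of Slc25a40, a glutathione carrier of the inner membrane, at -0.90 (SE 0.61, adjusted p = 0.668, edgeR).

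Among the counterparts outside the mitochondrial matrix (13 genes), the median was 0.0024 with Chd8 siRNA and -0.19 with Tsc2 siRNA, and with the block it was -0.0037 and -0.042. Srxn1, sulfiredoxin, which restores over-oxidized peroxiredoxins, was at 122, 87.8, and 142 CPM with control siRNA, 81.5, 53.3, and 77.0 CPM with Chd8 siRNA, and 89.5, 60.5, and 92.2 CPM with Tsc2 siRNA. All Chd8 siRNA libraries were below all control siRNA libraries, with a log2 fold change of -0.73 (SE 0.23, adjusted p = 1.00, edgeR) without the block and -0.73 (SE 0.086, adjusted p = 0.00173, edgeR) with it, where it was called, as it was in 6 of 6 block fits that left out 1 library. With Tsc2 siRNA, Srxn1 had -0.54 (SE 0.085, adjusted p = 0.00995, edgeR) with the block, which did not reach a fold change of 1.5, and it was called in 1 of 6 block fits that left out 1 library. Txnrd1, the cytosolic thioredoxin reductase, named after its values were seen, had -0.38 (SE 0.077, adjusted p = 0.0281, edgeR) with Chd8 siRNA and the block, which likewise did not reach a fold change of 1.5. Without the block, Txnrd3 had the largest value with Chd8 siRNA, 0.89 (SE 0.92), at no more than 1.65 CPM.

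Among the genes of selenoprotein synthesis (6 genes), which place selenocysteine in proteins such as GPX4 and TXNRD2, the median was -0.31 with Chd8 siRNA and 0.21 with Tsc2 siRNA. Pstk, the kinase that prepares the selenocysteine tRNA, had the largest value with Chd8 siRNA, -1.58 (SE 0.51, adjusted p = 1.00, edgeR). It was at 2.53, 2.83, and 3.90 CPM with control siRNA, 1.17, 0.383, and 1.48 CPM with Chd8 siRNA, and 1.71, 1.25, and 2.61 CPM with Tsc2 siRNA. Only the Chd8 siRNA group did not overlap with the control siRNA group. Sephs2, which makes the selenium donor, was higher in the Tsc2 siRNA group than in the Chd8 siRNA group with the block (log2 difference 0.83, SE 0.17, adjusted p = 0.0449, edgeR), and it was called in 2 of 6 block fits that left out 1 library. Those 2 fits left out Chd8 siRNA library 1 or Tsc2 siRNA library 1, and called 81 of 17183 and 130 of 17225 genes. The remaining block fits of this kind called between 4 and 9 genes. Sephs2 was at 16.2, 25.1, and 32.6 CPM with control siRNA, 17.8, 18.6, and 18.7 CPM with Chd8 siRNA, and 22.2, 34.3, and 46.7 CPM with Tsc2 siRNA.

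The list of mitochondrial content (16 genes of respiratory, import, and matrix proteins) had medians of 0.095 with Chd8 siRNA and 0.053 with Tsc2 siRNA, and its largest values were those of Uqcrc2 at 0.30 (SE 0.15) with Chd8 siRNA and Tomm40 at 0.26 (SE 0.18) with Tsc2 siRNA. No gene of this list was called with or without the block. The NF-κB responsive inflammatory genes (10 genes) had medians of 0.041 and 0.068, and the largest values were those of Lcn2 at -0.35 (SE 0.68) and -0.30 (SE 0.68). With the block, Saa3 had the largest value with Chd8 siRNA, -0.60 (SE 0.16, adjusted p = 0.0978, edgeR). Cxcl10, a chemokine also named after its values were seen, had 0.33 (SE 0.059, adjusted p = 0.0173, edgeR) in that fit, under a fold change of 1.5. Saa3 was at 405, 61.3, and 85.6 CPM with control siRNA, so the libraries with replicate number 1 stood apart, as they did with 367 CPM for Chd8 siRNA and 405 CPM for Tsc2 siRNA.

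**Figure D5:**
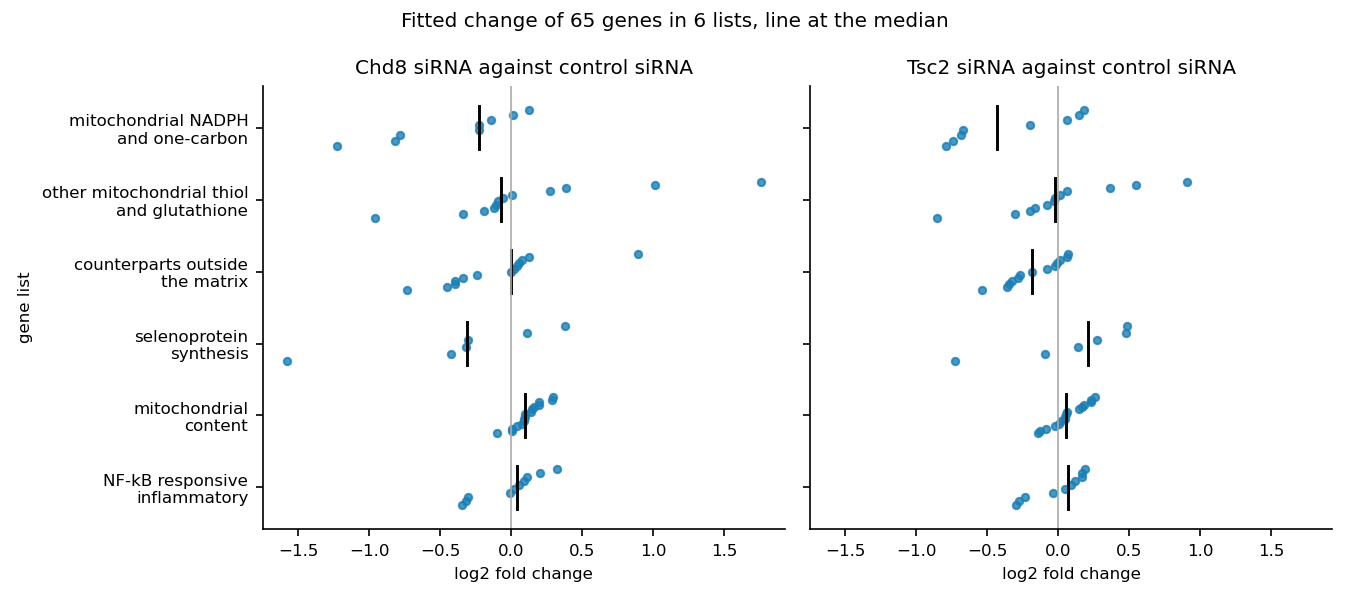
Fitted log2 fold change of the 65 genes of 6 lists, 1 point per gene, with a black line at each list's median, for Chd8 siRNA (left) and Tsc2 siRNA (right) against control siRNA. The medians lie between -0.43 and 0.21, and no gene was called in these fits.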

How the data were processed

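RNA-seq of 9 libraries was used, with 3 libraries each for control, Chd8, and Tsc2 siRNA. The authors quantified reads with Salmon 0.14.1 against mm10 and deposited estimated counts per transcript, without normalization or pooling. The annotation release is not given in the sources used here, and columns were matched by the sample descriptions. Sample descriptions name a stranded kit, whereas the methods name another total RNA preparation.

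GENCODE M21 (GRCm38) gave a gene for 139852 of 140948 transcripts, and the rest held 0.270% of the counts. Counts were summed per gene entry, rounded, filtered with filterByExpr, scaled by TMM, and tested with edgeR's quasi-likelihood test (edgeR 4.0.16, R 4.3.3) in 1 fit of 9 libraries with Benjamini-Hochberg adjustment. Genes were called at FDR 0.05 and 1.5-fold, the limits of the study's methods. CPM are TMM-normalized. TPM were computed from estimated counts and annotated lengths. For single values, log2(CPM + 0.5) was compared by exact permutation (two-sided). Tests were checked on simulated data. P-values set a group difference against the spread between these libraries, which in the blocked fit is the spread left after the replicate number.

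Libraries with the same replicate number deviated together from their group means in 9 of 9 pairs (r from 0.24 to 0.52, and from -0.38 to 0.036 for other pairs), so the numbers were taken as pairs in the blocked fit.

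Members and lists were chosen with earlier results of these data known. Named genes are the 8 members, list genes called in any comparison with or without the block, otherwise the list gene with the largest change in each comparison with control siRNA, the 5 genes most correlated with Nnt, and its 2 nearest tested neighbors on each side, of which some values are not reported here. Markers and the siRNA targets are named as checks. Alternatives were RLE normalization, no filter, DESeq2 1.42.0, fits of 6 libraries, the replicate block, summed entries of a symbol, protein-coding transcripts only, and each library left out.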

Additional observations from a re-analysis of the deposited data

How the results depend on the processing

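The number of the 8 genes called rose from 0 to 1 for Tsc2 siRNA against control siRNA and for Tsc2 siRNA against Chd8 siRNA with the replicate block, with DESeq2's Wald test, and with protein-coding transcripts only and the replicate block, and each time the gene was the main entry of Nnt. Nothing is read from these counts, since Nnt was selected on the Tsc2 siRNA libraries. The block changed no call of the other 7 genes. Among fits that left out 1 library, with or without the block, the number called ranged from 0 to 1 for Tsc2 siRNA against control siRNA and from 0 to 2 for Tsc2 siRNA against Chd8 siRNA, the latter adding Idh2 without Tsc2 siRNA replicate 1. The block fit without that library called 130 of 17225 genes for Tsc2 siRNA against Chd8 siRNA. The 2 alternatives that join the block with summed entries or with protein-coding transcripts were chosen after seeing the data.

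Summing the Nnt entries turned the log2 fold change of Chd8 siRNA against control siRNA from 0.37 to -0.11, and to -0.085 with the block, and moved that of Tsc2 siRNA from -1.87 to -0.29. With protein-coding transcripts only, the latter was -2.89. For Gpx4, Tsc2 siRNA against Chd8 siRNA was 0.012 with protein-coding transcripts only. The same setting moved Txnrd2 from -0.29 to -0.57 for Tsc2 siRNA against control siRNA and from -0.072 to -0.40 for Tsc2 siRNA against Chd8 siRNA, and Sod2 from -0.063 to -0.13 for Tsc2 siRNA against control siRNA and from 0.031 to 0.0059 for Chd8 siRNA against control siRNA. Leaving out 1 library moved many values that were not called. Over fits with and without the block, the range for Chd8 siRNA against control siRNA was 0.37 to 0.83 for Idh2, -0.26 to -0.060 for Prdx5, and 0.14 to 0.30 for Txn2. Some other values changed sign. Without the block, the range over such fits was -0.011 to 0.070 for Sod2 and -0.67 to 0.022 for Txnrd2 (Chd8 siRNA against control siRNA), -0.11 to 0.27 for Prdx3, -0.023 to 0.36 for Gpx4, and -0.18 to 0.042 for Idh2 (Tsc2 siRNA against control siRNA), and -0.40 to 0.39 for Txnrd2 and -0.26 to 0.065 for Gpx4 (Tsc2 siRNA against Chd8 siRNA). With the block, Txnrd2 turned to 0.16 for Chd8 siRNA against control siRNA. For Tsc2 siRNA against control siRNA, Prdx3 turned to -0.081, -0.080, and -0.033, Idh2 to 0.052 and 0.19, and Txnrd2 to 0.051 in 1 fit each. For Tsc2 siRNA against Chd8 siRNA, Txnrd2 turned to 0.50 and 0.34, Gpx4 to 0.0059 and 0.019, Prdx5 to -0.0015, and Txn2 to 0.0053. The causes of these changes were not tested. For the main entry of Nnt, the 12 such fits gave 0.13 to 0.63 for Chd8 siRNA against control siRNA and -2.11 to -1.63 for Tsc2 siRNA against control siRNA, a direction that its selection fixed. Nnt (main entry), Prdx3, and Txnrd2 had 929, 1139, and 864 estimated counts over the 9 libraries, and whether depth sets their spread was not tested.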
